A study of Saccharomyces cerevisiae with 24 samples.

Results

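Budding yeast cells that lacked the transcription factor Crz1 but kept the phosphatase calcineurin were compared after 48 h in 200 mM CaCl2 with the same strain before CaCl2 was added. The comparison used 6 of the 24 RNA sequencing libraries of the series, the 3 labelled crz1 at 48 h and the 3 labelled crz1 untreated, and these labels alone chose them. The haploid MATa strain was of the BY4741 background and carried his3delta1, ura3delta0, leu2delta0 and lys2delta0, the disruption crz1delta::LEU2 and, at positions 181901 to 182001 of chromosome VI, the cassette HYG-TEFp-GFP(Y66F), in which the TEF promoter drives a GFP variant. The strain crz1_cnb1, used for 1 comparison below, carried the same alleles and also cnb1delta::KanMx, which removes the regulatory subunit of calcineurin. All cultures grew in a synthetic medium with ammonium chloride as the nitrogen source and were diluted every 12 h, and each time course was run in triplicate. No untreated library was taken at 48 h, so time in culture and repeated dilution cannot be told apart from CaCl2 in what follows. The question stated with the study was which changes of expression in lasting CaCl2 depend on calcineurin and not on Crz1.

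Calcineurin is switched on by calcium and calmodulin, and it removes phosphates from Crz1, which then moves into the nucleus and turns on genes for calcium pumps, ion balance and the cell wall. Calcineurin has other substrates, so a crz1 strain keeps the phosphatase and loses its best-known transcriptional arm. In the same cells Aft1 turns on iron uptake genes when iron runs short, Ste12 turns on mating genes, and the kinase Hog1 raises glycerol synthesis when the medium is concentrated.

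The libraries held 21582317 to 22016465 counts each, and 6089 genes passed the filter on low counts and were tested. CRZ1 had 2, 0 and 1 counts in the untreated and 1, 3 and 1 counts in the 48 h libraries, and URA3 and LYS2 had 0 counts in each library of the series, which is the pattern of the stated ura3delta0 and lys2delta0 deletions. HIS3 had 1508 to 1895 counts untreated and 1107 to 1746 at 48 h, and the his3delta1 allele is known as a partial deletion. LEU2 had 10333 to 14470 counts untreated and 11537 to 15300 at 48 h, and is the marker inserted at CRZ1 in this leu2delta0 strain. CNB1 had 2542, 2162 and 2001 counts untreated and 2519, 3043 and 2484 counts at 48 h. Untreated replicate 1 lay apart from untreated replicates 2 and 3 on the first principal component, at -21.1 against -38.0 and -39.9. Of the marker genes of the other mating type, 4 were tested, and their summed level was 26.2 to 35.0 CPM (counts per 1e6 counts) untreated and 23.3 to 34.8 CPM at 48 h, with 1 of the 4 at 0 in 48 h replicate 1. In bulk RNA, fewer cells that express a gene and less RNA per cell cannot be told apart.

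The 3 libraries at 48 h differed from each other more than the libraries of any other group of the series. Among them 986 of 6089 genes (16.2%) spanned at least 2-fold, against 175 to 558 genes in the other 7 groups, and the median SD per gene was 0.284 on the log2 CPM scale. The median absolute log2 difference was 0.399 between replicates 1 and 2, 0.453 between replicates 1 and 3, and 0.180 between replicates 2 and 3. In replicate 1, 349 genes lay at least 2-fold below both other libraries there and 89 lay at least 2-fold above both. The same counts were 12 and 17 genes for replicate 2, and 21 and 53 for replicate 3. The split for replicate 1 depended on the scale: after the length correction described next it was 171 below and 203 above, and on log2(TPM + 1) 96 below and 576 above. Without replicate 1, 129 genes spanned at least 2-fold between the remaining pair. Of the means of the other groups, replicate 1 was nearest to that of crz1_cnb1 at 72 h (median absolute log2 difference 0.140) and next to that of crz1 at 72 h (0.158), with 0.197 and 0.211 from crz1_cnb1 and crz1 at 12 h, 0.239 from crz1_cnb1 at 48 h and 0.354 from untreated crz1. The nearest mean for replicates 2 and 3 was that of crz1_cnb1 at 48 h (0.275 and 0.348), and they were at 0.396 and 0.422 from the mean at 72 h and at 0.364 and 0.414 from the untreated mean.

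**Figure D1:**
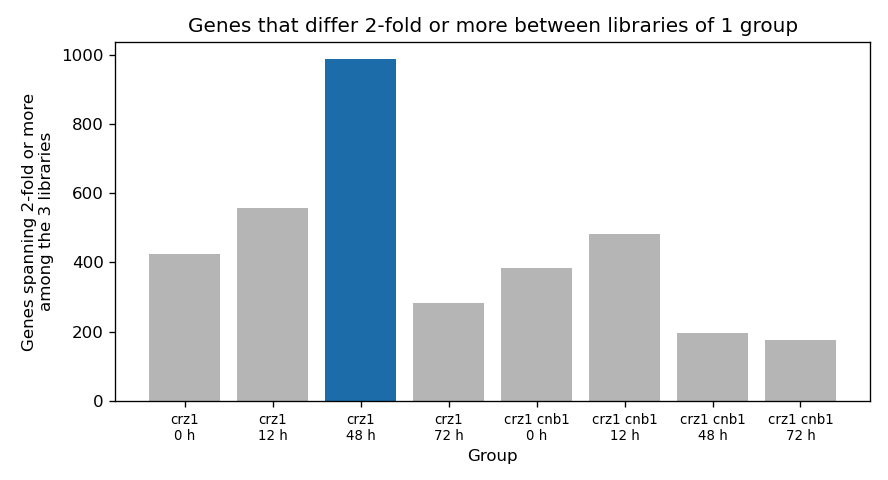
Number of genes whose 3 libraries span at least 2-fold in CPM, 1 bar for each of the 8 groups, out of 6089 genes. The bar of the crz1 48 h group stands at 986, and the other crz1 bars at 424 (untreated), 558 (12 h) and 283 (72 h).

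The difference among the 48 h libraries was related to the length of the coding sequence. For each library, Spearman's rho was taken between coding length and each gene's log2 CPM deviation from its mean over all 24 libraries. It was 0.38 in replicate 1, -0.62 in replicate 2 and -0.59 in replicate 3. The 5705 genes used share each library and are not independent replicates. On this measure the untreated crz1 libraries had rho of -0.12, -0.15 and -0.25. Against the untreated crz1 mean, genes of up to 300 bases had median log2 differences of -0.17, 0.61 and 0.69 in replicates 1, 2 and 3. Genes over 2000 bases had 0.28, -0.12 and -0.18. The crz1 libraries at 12 h had rho of 0.39, 0.096 and -0.019. Those at 72 h had rho from 0.31 to 0.38, on the side of replicate 1, and the crz1_cnb1 libraries at 48 h had 0.04, -0.38 and -0.26. On the third principal component replicates 1, 2 and 3 lay at -3.9, 30.7 and 32.6. The crz1 libraries at 72 h lay there at -5.8, -5.2 and -7.3, and crz1_cnb1 at 48 h at 4.1, 19.65 and 11.8. Here and by the distances above, replicates 2 and 3 lay further from the 72 h libraries than replicate 1 did. Leaving out replicate 1 is thus an alternative, not a correction. Counts are also given after a correction that removes the trend with coding length from each library, which was chosen after the data were seen. After it 847 of 5705 genes still spanned at least 2-fold among the 48 h libraries, the median SD was 0.261 on the log2 scale, and replicate 1 had median absolute log2 differences of 0.376 and 0.423 from replicates 2 and 3. The part of RNA quality, extraction or culture in this trend was not tested. With the GC content of the coding sequence, rho was -0.29, -0.21 and -0.16 in the untreated crz1 libraries. In the 48 h libraries it was 0.10, 0.059 and 0.13, and no correction was made for GC content.

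**Figure D2:**
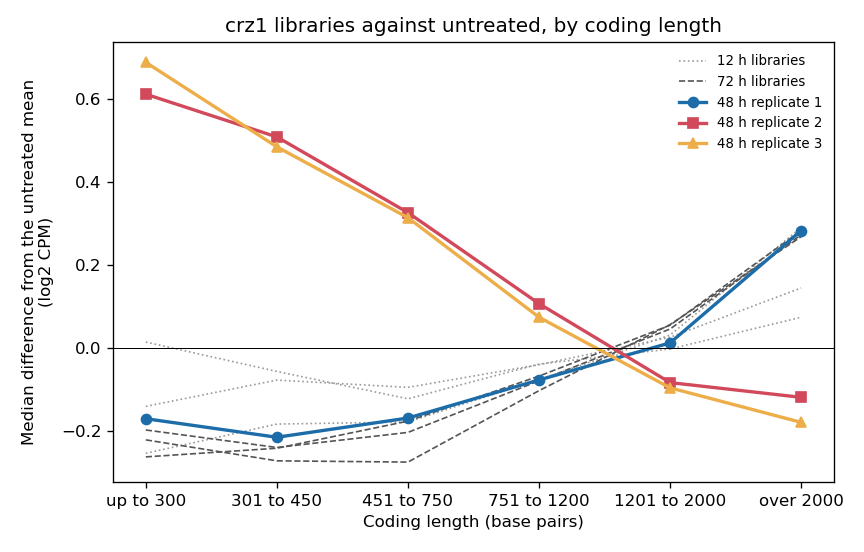
Median log2 CPM difference from the untreated crz1 mean in 6 bins of coding length in bases, 1 line for each library of crz1 at 12, 48 and 72 h. At 48 h replicates 2 and 3 start at 0.61 and 0.69 in the shortest bin and end at -0.12 and -0.18 in the longest, whereas replicate 1 goes from -0.17 to 0.28, as the 72 h libraries do.

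Across all tested genes 33.5% changed at 48 h, and 1206 rose (19.8%) and 835 fell (13.7%), by edgeR's quasi-likelihood test with a Benjamini-Hochberg adjusted p below 0.05, and 310 of the rises and 191 of the falls were at least 2-fold. The median log2 change of all tested genes was 0.07, with -0.02, 0.07 and 0.06 for replicates 1, 2 and 3 against the untreated mean. The calls depended on replicate 1: without it 1621 genes rose (26.5%) and 1109 fell (18.1%), and with it as the only treated library 970 rose (15.7%) and 568 fell (9.18%). After the length correction 1097 genes rose (19.2%) and 1060 fell (18.6%). The calls also depended on pooling the spread over all groups, of which crz1 at 48 h had the largest median SD. In a fit of the 6 libraries alone 629 of 5964 genes were called. On the deposited TPM values, which scale by transcript length, 387 rose and 1794 fell, and the median of all genes there was -0.25, so that calls on that scale include this shift. All 3 libraries at 48 h lay above all 3 untreated ones for 18.2% of genes and below them for 14.5%. In the text, rose and fell are used for calls in the fit to all 24 libraries. Each value after ± is an approximate standard error of a log2 change, its size divided by the square root of the test's F statistic. It rests on spread pooled over all groups of the fit, with 3 libraries per group unless a library was left out. Exceptions are given beside the gene or group. A fit with replicate 1 as the only treated library holds no spread among the 48 h libraries. Its calls rest on the spread within the other groups. Counts of rises and falls in a list stand against 19.8% and 13.7% of all genes in the fit to all 24 libraries. Where a pair of counts is given for the fit of the 6 libraries alone or by TPM, the higher ones come first. Pairs from the 6 libraries stand against 374 higher and 255 lower of 5964 genes in that fit. Pairs by TPM stand against 387 higher and 1794 lower of 6151 genes.

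Iron uptake genes had the largest rises. All 7 tested genes of siderophore uptake rose (7 of 7, against 19.8% of all genes), with a median log2 change of 3.64, and the medians of replicates 1, 2 and 3 against the untreated mean were 3.62, 3.70 and 3.68. ARN1 (YHL040C), a transporter of ferrichrome-type siderophores, had 123, 138 and 86.2 CPM before CaCl2 and 1392, 1473 and 1456 CPM at 48 h. The 48 h libraries lay within a narrow range, far above the untreated ones, and the log2 change was 3.64 ± 0.20 (adjusted p = 1.01e-10). The sequence upstream of ARN1 is shown because 6 of the 7 siderophore genes, and 6 of 16 genes of reductive iron uptake, held TGCACCC, a form of the Aft1 site, on either strand between 400 and 151 bases before the start codon, against 1.23% of the 6007 windows of this length. The window of ARN1 is chrVIII:21122-21371 on the minus strand of build R64, read from the reference genome, with the match in capitals, and it begins 260 bases before the start codon.
ARN1 upstream: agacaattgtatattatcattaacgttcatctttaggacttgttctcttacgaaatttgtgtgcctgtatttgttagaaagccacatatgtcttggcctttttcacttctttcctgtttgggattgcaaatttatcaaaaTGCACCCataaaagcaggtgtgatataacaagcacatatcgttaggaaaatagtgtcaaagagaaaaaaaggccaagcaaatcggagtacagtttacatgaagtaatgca

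FIT1, FIT2 and FIT3 encode mannoproteins of the cell wall that retain siderophores. FIT2 had 1005, 2295 and 968 CPM before CaCl2 and 28297, 23288 and 26539 CPM at 48 h, a log2 change of 4.19 ± 0.37, and it was the gene with the highest count in replicate 1, with 2.91% of all counts there. FIT3 had 173, 264 and 172 CPM before CaCl2 and 20111, 7836 and 5631 CPM at 48 h, a log2 change of 5.78 ± 0.51 (adjusted p = 1.34e-07). FIT1 had 8.29, 7.67 and 5.44 CPM before CaCl2 and 2500.0, 663 and 263 CPM at 48 h, and its log2 change was 7.32 ± 0.79 (adjusted p = 3.51e-06). For FIT1 and FIT3 the groups stayed far apart although replicate 1 was the highest by a wide margin: without it their log2 changes were 6.02 ± 0.58 and 5.05 ± 0.42. The transporter genes ARN2, SIT1 and ENB1, for triacetylfusarinine, ferrioxamine and enterobactin, had 2185, 1378 and 1410.0, 1481, 817 and 1076 and 1145, 748 and 783 CPM at 48 h, each above all untreated values (192, 316 and 154, 337, 303 and 236 and 402, 404 and 285 CPM). Their log2 changes were 2.91 ± 0.25, 1.95 ± 0.29 and 1.29 ± 0.26.

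Of 16 tested genes of reductive iron and copper uptake, 10 rose and 2 fell, with a median log2 change of 1.20. The falls were 1 without untreated replicate 2 or 3 or without 48 h replicate 1 or 3, and on the TPM scale the list had 7 higher and 2 lower. FRE2, a ferric reductase, had 6.94, 7.17 and 5.44 CPM before CaCl2 and 514, 189 and 126 CPM at 48 h, a log2 change of 5.41 ± 0.49 (adjusted p = 2.74e-07). Replicate 1 was again the highest, no 48 h library came near an untreated one, and without replicate 1 the log2 change was 4.59 ± 0.36. FRE5, a putative reductase, and FRE3 and FRE1, which reduce siderophore iron and free ferric iron, rose by 3.80 ± 0.48, 1.89 ± 0.22 and 1.61 ± 0.28. The high-affinity permease gene FTR1 had 508, 311 and 274 CPM before CaCl2 and 2087, 959 and 1098 CPM at 48 h (log2 change 1.92 ± 0.33), and its multicopper oxidase partner FET3 had 1407, 1148 and 926 CPM before CaCl2 and 3814, 1890.0 and 2403 CPM at 48 h (log2 change 1.22 ± 0.28, not called on the TPM scale). Both genes were highest in replicate 1, and their groups did not overlap. ATX1, the copper chaperone that loads the oxidase through Ccc2, had 40.5, 43.8 and 42.1 CPM before CaCl2 and 98.7, 216 and 229 CPM at 48 h, with replicate 1 the lowest, and rose by 2.11 ± 0.22. CTR2, a vacuolar copper transporter, rose by 1.89 ± 0.14 with 159, 174 and 225 CPM at 48 h. FET4, the low-affinity iron transporter, went the other way, from 130.2, 171 and 173 CPM to 42.3, 19.3 and 11.5 CPM, a log2 change of -2.69 ± 0.34 (adjusted p = 1.03e-05), or -3.36 ± 0.30 without 48 h replicate 1, its highest library there.

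Of 18 tested genes for iron handling inside the cell and for biotin uptake, 10 rose and 1 fell, with a median of 0.70. The list had 6 higher and 1 lower in a fit of the 6 libraries alone, and 5 higher and 1 lower by TPM. COT1, a vacuolar metal transporter, rose by 1.44 ± 0.22 from 152, 151 and 134 CPM to 527, 309 and 349 CPM. ISU1 and ISU2, the scaffolds for iron-sulfur clusters, had 64.2, 61.9 and 60.1 and 50.8, 43.6 and 41.7 CPM before CaCl2 and 142, 97.0 and 116 and 161, 96.6 and 96.3 CPM at 48 h, and rose by 0.93 ± 0.13 and 1.38 ± 0.31. For these genes the groups did not overlap, and replicate 1 held the highest value of each. CTH1, an mRNA-decay factor of the iron response, fell by 0.76 on the log2 scale, from 51.4, 49.9 and 61.1 CPM to 22.6, 36.9 and 36.3 CPM. AFT1 itself had 69.9, 51.9 and 53.1 CPM before CaCl2 and 138, 66.0 and 75.5 CPM at 48 h, with replicate 1 above all others, and did not pass the test (0.68 ± 0.34 (adjusted p = 0.136)). The vacuolar iron importer gene CCC1 had 49.5, 53.1 and 61.4 CPM before CaCl2 and 38.8, 109 and 60.4 CPM at 48 h and also did not pass (0.35 ± 0.53 (adjusted p = 0.646)).

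Outside these lists, HBN1, HPF1 and YTP1 were among the 12 largest rises, as was PHO84, described below. Groups that did not overlap were a condition for these 12. HBN1, a protein with similarity to nitroreductases, had 6.98, 5.33 and 4.13 CPM before CaCl2 and 151, 105 and 86.8 CPM at 48 h, a log2 change of 4.38 ± 0.34 (adjusted p = 2.56e-08). HPF1, a mannoprotein of the cell wall, had 47.4, 36.4 and 31.6 CPM before CaCl2 and 701, 362 and 338 CPM at 48 h (log2 change 3.60 ± 0.40). YTP1, of unknown role, had 4.99, 5.87 and 5.96 CPM before CaCl2 and 52.1, 38.5 and 54.0 CPM at 48 h (log2 change 3.10 ± 0.22). LSO1, a small protein that responds to iron loss, had 2.12, 0.880 and 0.522 CPM before CaCl2 and 169, 24.5 and 6.21 CPM at 48 h. Its 48 h values differed widely among themselves, and its log2 change of 5.82 ± 1.32 went to 3.71 ± 1.15 without replicate 1.

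**Figure D3:**
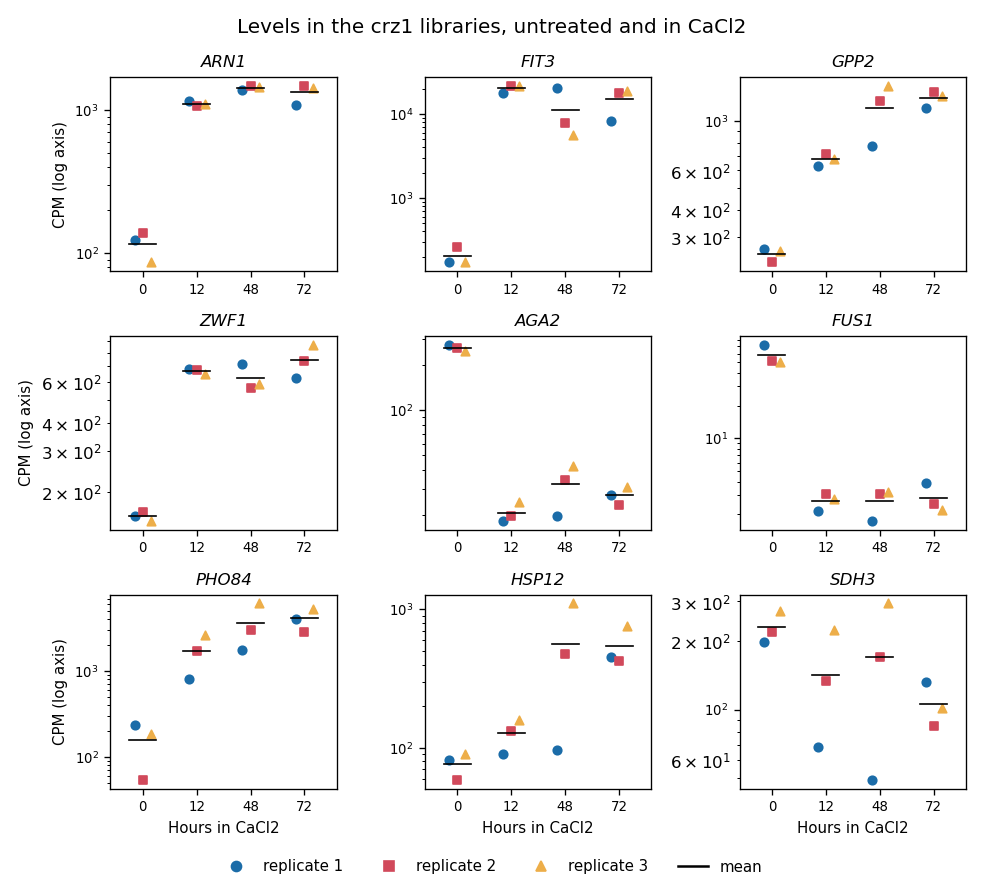
CPM on a log axis at 0, 12, 48 and 72 h in the crz1 strain for ARN1, FIT3, GPP2, ZWF1, AGA2, FUS1, PHO84, HSP12 and SDH3, with 1 point for each library and a bar at each group mean. ARN1 and AGA2 hold their shift from 12 to 72 h, while HSP12 and SDH3 spread over 96.8 to 1104 CPM and 49.0 to 294 CPM among the 48 h libraries.

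Genes of glycerol synthesis and uptake rose. Of 11 tested, 7 rose and 1 fell, with a median log2 change of 0.37. The falls were 2 without untreated replicate 1 or 48 h replicate 1 and 0 without untreated replicate 2 or 3 or 48 h replicate 2 or 3, and the list had 4 higher and 0 lower in a fit of the 6 libraries alone and 3 higher and 2 lower on the TPM scale. GPP2, a glycerol-3-phosphatase of the last step of glycerol synthesis, had 266, 232 and 260.2 CPM before CaCl2 and 774, 1229 and 1439 CPM at 48 h. All 48 h libraries lay above all untreated ones, replicate 1 the lowest of them, and the log2 change was 2.18 ± 0.17 (adjusted p = 1.37e-08). The other phosphatase gene, GPP1, rose by 0.57 ± 0.14, and GPD1, the dehydrogenase of the first step, rose by 1.15 ± 0.19 with 184, 266 and 293 CPM before CaCl2 and 583, 471 and 598 CPM at 48 h. STL1, the glycerol importer, had 0.761, 0.419 and 0.739 CPM before CaCl2 and 2.76, 2.38 and 3.64 CPM at 48 h and rose by 2.18 ± 0.40, and GUT1, the glycerol kinase of the breakdown route, rose by 0.86 ± 0.16. GPP1 and GUT1 were not called on the TPM scale, nor GPP1 in the fit of the 6 libraries. GPD2, the second dehydrogenase gene, had 343, 508 and 476 CPM before CaCl2 and 449, 291 and 329 CPM at 48 h, with overlapping groups (-0.31 ± 0.17 (adjusted p = 0.171)). The window upstream of GPP2, chrV:280833-281082 on the minus strand of R64, is shown for AGGGG, the stress response element bound by Msn2 and Msn4, which 8 of the 11 windows held on either strand against 20.0% of all windows. It reads CCCCT here, 274 bases before the start codon.
GPP2 upstream: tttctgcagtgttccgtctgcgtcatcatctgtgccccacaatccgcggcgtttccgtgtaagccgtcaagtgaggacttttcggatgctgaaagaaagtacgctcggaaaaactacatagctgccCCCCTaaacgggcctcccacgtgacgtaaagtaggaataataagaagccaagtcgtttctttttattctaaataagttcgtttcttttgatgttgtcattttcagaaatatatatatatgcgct

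Genes of calcium transport and signalling moved in both directions. Of 15 tested, 4 rose and 5 fell, with a median of 0.09. The falls were 3 without untreated replicate 2 or 3 or 48 h replicate 3, the rises were 2 without 48 h replicate 3, and the list had 0 higher and 2 lower in a fit of the 6 libraries alone and 0 higher and 6 lower on the TPM scale. CNA1, a catalytic subunit of calcineurin, had 96.6, 80.8 and 86.5 CPM before CaCl2 and 58.5, 48.7 and 51.5 CPM at 48 h and fell by 0.73 on the log2 scale (adjusted p = 5.25e-05). CMK2, a calmodulin-dependent kinase, fell from 25.0, 41.6 and 35.4 CPM to 16.4, 12.6 and 14.9 CPM, a log2 change of -1.21 ± 0.19. The groups of both genes did not overlap. CMD1, calmodulin, and RCN1, a regulator of calcineurin, rose by 0.46 ± 0.09 and 0.43 ± 0.11, both calls that were lost on the TPM scale and in the fit of the 6 libraries, that of CMD1 also after the length correction, and that of RCN1 also with replicate 1 as the only treated library. The calcium pump genes PMC1, of the vacuole, and PMR1, of the Golgi, did not pass the test: PMC1 had 58.8, 76.2 and 66.2 CPM before CaCl2 and 63.7, 60.6 and 66.6 CPM at 48 h (-0.08 ± 0.11), and PMR1 had 139.8, 139 and 131 CPM before CaCl2 and 194, 136 and 172 CPM at 48 h (0.29 ± 0.13). Of 14 tested genes known as Crz1 targets, which these cells cannot induce through Crz1, 4 rose and 2 fell, with a median of 0.31, and the counts were 0 higher and 1 lower in a fit of the 6 libraries alone and 0 higher and 3 lower on the TPM scale. The falls were 1 without untreated replicate 2 or 3 or 48 h replicate 2. GSC2, a glucan synthase subunit on that list, had 26.6, 28.1 and 29.0 CPM before CaCl2 and 46.8, 34.3 and 44.7 CPM at 48 h (0.59 ± 0.16), a call not made on the TPM scale or in the fit of the 6 libraries. ENA1, a sodium pump gene on it, had 13.4, 9.02 and 11.5 CPM before CaCl2 and 12.3, 12.7 and 17.7 CPM at 48 h, with overlapping groups (0.33 ± 0.20 (adjusted p = 0.219)). Its near-identical copies share reads, so its level is uncertain.

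Mating genes fell. Of the 7 tested genes specific to MATa cells, 6 fell (against 13.7% of all genes) and all 7 had their 48 h libraries below all untreated ones, with a median log2 change of -1.71 and medians of -2.24, -1.59 and -1.06 in replicates 1, 2 and 3. AGA2, the binding subunit of a-agglutinin, had 274, 261 and 249 CPM before CaCl2 and 19.8, 34.6 and 42.7 CPM at 48 h, a log2 change of -3.02 ± 0.21 (adjusted p = 3.70e-09). The untreated libraries lay close together, and replicate 1 held the lowest of the 48 h values. BAR1, the protease that degrades alpha-factor, fell from 389, 264 and 282 CPM to 64.9, 71.7 and 85.4 CPM (-2.08 ± 0.20). ASG7, which regulates pheromone signalling, fell by 2.27 on the log2 scale. STE2, the alpha-factor receptor, had 1109, 985 and 1032 CPM before CaCl2 and 329, 432 and 553 CPM at 48 h (-1.25 ± 0.21). STE6, the a-factor exporter, fell from 243, 179 and 179.5 CPM to 112, 124 and 129.8 CPM (-0.72 ± 0.15). MFA1, one of the near-identical a-factor genes, had 600.2, 706 and 726 CPM before CaCl2 and 73.7, 224 and 324 CPM at 48 h (-1.71 ± 0.40), and MFA2 had 1112, 1181 and 1602 CPM before CaCl2 and 351, 811 and 1013 CPM at 48 h and did not pass (-0.84 ± 0.34 (adjusted p = 0.0592)). For both a-factor genes replicate 1 was the lowest by a wide margin, and MFA2 passed the test with replicate 1 as the only treated library and after the length correction (-1.38 ± 0.21).

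Of 28 tested genes of the pheromone response, 16 fell and 2 rose, with a median of -0.69, and the counts higher and lower were 1 and 12 in the fit of the 6 libraries and 0 and 21 by TPM. With replicate 1 as the only treated library 11 fell. The rises were 1 without untreated replicate 2. FUS1, a membrane protein of cell fusion, had 72.6, 51.3 and 50.5 CPM before CaCl2 and 1.74, 3.06 and 3.21 CPM at 48 h, a log2 change of -4.45 ± 0.40 (adjusted p = 1.34e-07). AGA1, the anchor of a-agglutinin, fell from 378, 346 and 339 CPM to 42.2, 20.7 and 30.9 CPM (-3.50 ± 0.30). SST2, which shuts off the G protein of the pathway, fell from 255, 175 and 165 CPM to 42.6, 46.5 and 47.5 CPM (-2.12 ± 0.19). FIG1, a membrane protein needed for calcium influx in mating cells, had 7.11, 5.95 and 5.48 CPM before CaCl2 and 0.0446, 0.0486 and 0.161 CPM at 48 h. The groups of these 4 genes did not overlap, and the 48 h values of FIG1 rest on a few counts in each library. AFR1, which shapes the mating projection, fell by 2.55 on the log2 scale. The window upstream of AGA2, chrVII:436984-437233 on the minus strand of R64, is shown for TGAAACA, the pheromone response element bound by Ste12, which 6 of 7 windows of genes specific to MATa cells and 12 of 28 pheromone windows held on either strand, against 6.04% of all windows. Its matches read TGTTTCA, are in capitals and lie 395 and 199 bases before the start codon.
AGA2 upstream: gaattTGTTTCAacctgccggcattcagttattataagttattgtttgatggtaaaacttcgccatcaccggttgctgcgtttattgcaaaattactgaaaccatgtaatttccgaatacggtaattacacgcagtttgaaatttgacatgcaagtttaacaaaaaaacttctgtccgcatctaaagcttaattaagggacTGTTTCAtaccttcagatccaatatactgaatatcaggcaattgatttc

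Genes of the alpha cell type and of sporulation, which haploid MATa cells do not use, were low. Of 10 tested sporulation genes 5 fell and 1 rose (0 and 3 in the fit of the 6 libraries and 0 and 5 by TPM, and no rise without untreated replicate 1 or 3 or 48 h replicate 2 or 3), and their summed level was 88.4 to 101 CPM untreated and 60.1 to 63.0 CPM at 48 h. ZIP1, of the synaptonemal complex, fell from 18.7, 16.6 and 18.9 CPM to 9.18, 7.72 and 7.07 CPM (-1.18 ± 0.15).

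Several genes of the late ergosterol pathway rose. Of 15 tested, 8 rose and 0 fell, with a median of 0.56, and the list had 4 higher and 0 lower in a fit of the 6 libraries alone and 4 higher and 2 lower on the TPM scale. ERG2, the C-8 sterol isomerase, had 400.2, 385 and 385 CPM before CaCl2 and 588, 883 and 827 CPM at 48 h, a log2 change of 0.97 ± 0.13 (adjusted p = 1.63e-05). ERG3, the C-5 desaturase, had 895, 858 and 871 CPM before CaCl2 and 2040.0, 1609 and 2076 CPM at 48 h (1.12 ± 0.21), ERG4, the reductase of the last step, rose by 1.02 ± 0.15, and NCP1, which feeds electrons to the cytochrome P450 enzymes of the pathway, rose by 1.29 ± 0.21 with 1725, 952 and 1093 CPM at 48 h. The groups of these 4 genes did not overlap. ERG11, the target of azole drugs, had 799.9, 692 and 886 CPM before CaCl2 and 474, 533 and 718 CPM at 48 h, with overlapping groups (-0.46 ± 0.23 (adjusted p = 0.129)). The early steps up to farnesyl pyrophosphate had 2 rises and 0 falls among 9 tested genes, and 0 rises without untreated replicate 2 or 3 or 48 h replicate 3, with counts of 0 and 0 in the fit of the 6 libraries and 0 and 2 by TPM. The window upstream of ERG2, chrXIII:667137-667386 on the plus strand of R64, is shown for TCGTATA, the sterol regulatory element bound by Upc2 and Ecm22, which 4 of 15 windows held on either strand against 3.88% of all windows. Its match begins 185 bases before the start codon.
ERG2 upstream: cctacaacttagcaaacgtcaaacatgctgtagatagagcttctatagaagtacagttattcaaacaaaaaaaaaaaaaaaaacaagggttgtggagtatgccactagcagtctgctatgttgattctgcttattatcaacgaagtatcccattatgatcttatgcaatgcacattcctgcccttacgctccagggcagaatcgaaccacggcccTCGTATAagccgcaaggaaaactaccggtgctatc

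The 4 motifs were searched as exact letters on both strands. Matches of TGCACCC can overlap those of AGGGG read on the other strand. A match is a description of these letters, and none of the windows was tested for binding.

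The pentose phosphate pathway, which supplies NADPH, had 6 rises and 0 falls among 11 tested genes, with a median of 0.72, and 6 to 8 rises when each library was left out in turn. ZWF1, the glucose-6-phosphate dehydrogenase of the first step, had 157, 163 and 149.7 CPM before CaCl2 and 718, 564 and 588 CPM at 48 h, a log2 change of 1.99 ± 0.19 (adjusted p = 1.41e-07). TKL2, a transketolase, had 6.09, 6.33 and 5.22 CPM before CaCl2 and 42.0, 30.6 and 35.1 CPM at 48 h (2.61 ± 0.23). TAL1, the transaldolase, rose by 0.79 ± 0.13. NQM1, its paralog, had 14.8, 15.7 and 15.7 CPM before CaCl2 and 32.6, 84.6 and 108 CPM at 48 h (2.29 ± 0.27), with replicate 1 well below the other 48 h libraries and above all untreated ones. The main transketolase gene TKL1 (1045, 1079 and 1030.0 and 1346, 893 and 1114 CPM) and GND1, the 6-phosphogluconate dehydrogenase (929, 953 and 895 and 1044, 821 and 1133 CPM), had overlapping groups and did not pass the test. Of 20 tested genes of the oxidative stress defence, 9 rose and 1 fell, with a median of 0.45. Leaving out 48 h replicate 1 gave 3 falls and leaving out 48 h replicate 3 gave 2, and the counts were 6 and 1 in the fit of the 6 libraries and 6 and 5 by TPM. OYE3, an NADPH oxidoreductase, had 3.38, 4.03 and 3.70 CPM before CaCl2 and 22.2, 33.7 and 24.1 CPM at 48 h (2.85 ± 0.25), TSA2, a peroxiredoxin, rose by 1.78 ± 0.23, and AHP1, another peroxiredoxin, had 1657, 1354 and 1458 CPM before CaCl2 and 2330.0, 3979 and 4805 CPM at 48 h (1.31 ± 0.18). AHP1 was lowest in replicate 1 among the 48 h libraries, TSA2 was highest there, and neither gene's groups overlapped. Of 21 tested genes of glutathione metabolism, 7 rose and 1 fell, with a median of 0.26. The rises were 4 without untreated replicate 2 or 3 or 48 h replicate 2 or 3, and the falls were 3 without 48 h replicate 1. The counts were 3 and 1 in the fit of the 6 libraries and 4 and 4 by TPM, where the median was -0.08. The glutathione transferase genes GTT2, ECM4 and GTO3 rose by 1.07 ± 0.18, 1.28 ± 0.25 and 1.79 ± 0.46.

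Phosphate and sulfate genes rose in part, and replicate 1 lay apart in both groups. Of 18 tested genes of phosphate supply 8 rose and 1 fell, with a median of 1.75 and medians of 0.12, 1.44 and 2.40 in replicates 1, 2 and 3. Without replicate 1, 15 rose (against 26.5% of all genes), and with it as the only treated library 4 rose and 1 fell. PHO84, the high-affinity phosphate transporter, had 233, 53.9 and 185 CPM before CaCl2 and 1749, 3037 and 6132 CPM at 48 h, a log2 change of 4.53 ± 0.81 (adjusted p = 0.000455). The 48 h values differed among themselves, and the lowest was still far above the highest untreated one. PHO81, the inhibitor of the Pho80-Pho85 kinase, had 51.0, 42.0 and 46.5 CPM before CaCl2 and 114, 143 and 218 CPM at 48 h (1.77 ± 0.22). PHO86, which lets Pho84 leave the endoplasmic reticulum, rose by 1.03 ± 0.16. VTC3 and VTC4, of the complex that makes polyphosphate, had 209, 378 and 487 and 244, 293 and 393 CPM at 48 h against 101, 75.7 and 101 and 128, 109.9 and 121 CPM untreated (1.95 ± 0.40 and 1.37 ± 0.26), and VTC3 was not called with replicate 1 as the only treated library. SPL2, which holds back low-affinity uptake, had 3.60, 2.10 and 6.22 CPM before CaCl2 and 2.63, 32.8 and 135 CPM at 48 h, so that replicate 1 lay among the untreated libraries and the other 48 h libraries well above them. Its log2 change was 3.84 ± 1.30 with all libraries, 4.40 ± 1.21 without replicate 1 and -0.59 with replicate 1 as the only treated library. The call was also lost on the TPM scale, in a fit of the 6 libraries alone and without 48 h replicate 3 or any 1 of the untreated libraries.

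Of 9 tested genes of sulfate assimilation 5 rose and 0 fell, with a median of 0.83 and medians of 0.02, 0.73 and 1.43 in replicates 1, 2 and 3. The rises were 8 without 48 h replicate 1, 3 without untreated replicate 2 and 2 without 48 h replicate 3, with counts of 2 and 0 in the fit of the 6 libraries and 2 and 0 by TPM, and 1 with replicate 1 as the only treated library. SUL2, the sulfate permease, had 18.6, 23.6 and 25.4 CPM before CaCl2 and 57.3, 36.9 and 76.1 CPM at 48 h (1.33 ± 0.24 (adjusted p = 0.000257)). MET8, which makes the siroheme of sulfite reductase, had 15.4, 12.3 and 13.1 CPM before CaCl2 and 19.4, 25.3 and 27.9 CPM at 48 h (0.83 ± 0.16). The groups of both genes did not overlap, and MET8 was not called with replicate 1 as the only treated library. Of 19 tested genes of methionine and cysteine synthesis and uptake 6 rose and 5 fell. The rises were 3 without 48 h replicate 3 and the falls 3 without untreated replicate 2 or 3, and the list had 1 higher and 0 lower in a fit of the 6 libraries alone and 1 higher and 7 lower on the TPM scale. CYS3, cystathionine gamma-lyase, had 331, 216 and 245 CPM before CaCl2 and 1142, 663 and 684 CPM at 48 h (1.65 ± 0.24 (adjusted p = 3.82e-05)), with replicate 1 the highest.

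**Figure D4:**
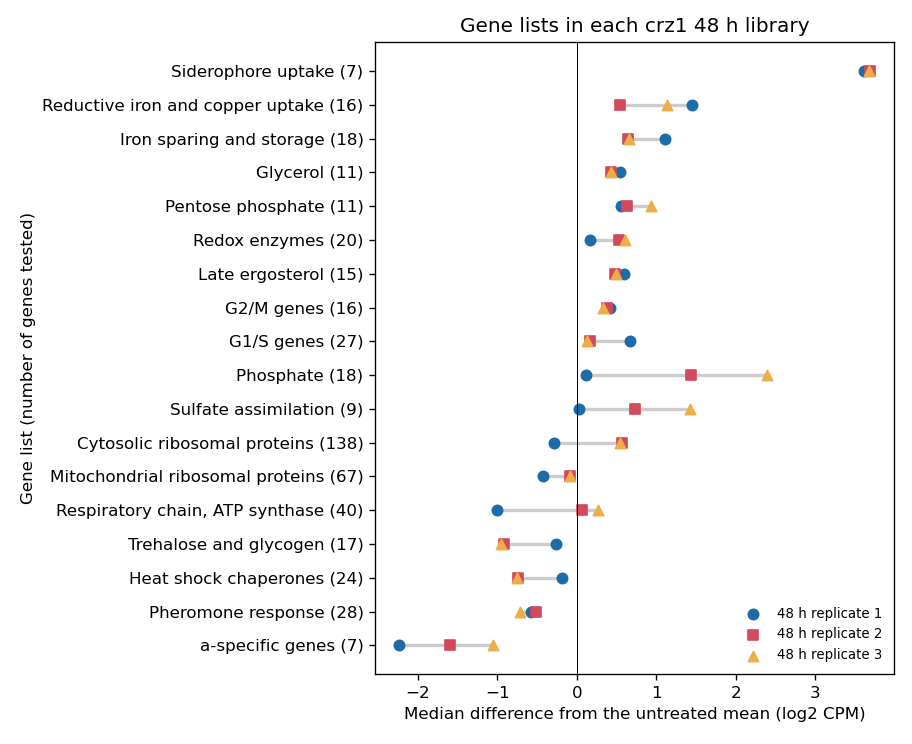
Median log2 CPM difference from the untreated mean for 18 gene lists in each of the 3 libraries of crz1 at 48 h, 1 point per library. Siderophore uptake lies at 3.62 to 3.70 in all 3 libraries, whereas replicate 1 falls below the other libraries for phosphate (0.12 against 1.44 and 2.40), sulfate (0.02 against 0.73 and 1.43) and respiration (-1.01 against 0.06 and 0.27).

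The direction of the respiratory chain and of the ribosome depended on replicate 1. Of 40 tested genes of respiratory complexes and of ATP synthase, 4 rose and 8 fell, with a median of -0.08 and medians of -1.01, 0.06 and 0.27 in replicates 1, 2 and 3. Without 48 h replicate 1 the counts were 12 higher and 7 lower, without 48 h replicate 2 or 3 the rises were 2, with replicate 1 as the only treated library 2 rose and 25 fell (against 15.7% and 9.18% of all genes), and after the length correction 2 rose and 16 fell. The counts were 0 and 7 in the fit of the 6 libraries and 1 and 19 by TPM. The members that fell in each of these fits include COR1 and QCR2, core subunits of complex III, and NDI1, the internal NADH dehydrogenase. COR1 had 95.3, 94.1 and 100.5 CPM before CaCl2 and 47.1, 49.0 and 51.3 CPM at 48 h (-0.98 ± 0.13 (adjusted p = 1.69e-05)), and QCR2 had 103, 97.5 and 93.3 CPM before CaCl2 and 47.2, 60.9 and 58.6 CPM at 48 h (-0.82 ± 0.15). NDI1 had 37.2, 97.3 and 85.7 CPM before CaCl2 and 18.9, 22.3 and 29.1 CPM at 48 h (-1.65 ± 0.32). The 3 values at 48 h lay below all untreated ones in each of these genes. SDH3, a membrane anchor of succinate dehydrogenase with a short coding sequence, had 199, 221 and 273 CPM before CaCl2 and 49.0, 171 and 294 CPM at 48 h (-0.43 ± 0.44 (adjusted p = 0.476)). QCR7, a small subunit of complex III, had 276, 248 and 269 CPM before CaCl2 and 67.4, 228 and 320.4 CPM at 48 h (-0.37 ± 0.38 (adjusted p = 0.480)). In both, replicate 1 lay below all untreated libraries and replicate 3 above them.

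Of 138 tested genes of cytosolic ribosomal proteins 30 rose and 1 fell (4 higher and 1 lower in the fit of the 6 libraries), with a median of 0.32 and medians of -0.29, 0.56 and 0.54 in replicates 1, 2 and 3. Without 48 h replicate 1 115 rose, with it as the only treated library 5 rose and 20 fell, after the length correction 17 rose and 5 fell, and on the TPM scale the counts were 9 higher and 20 lower. The rises were 14 without untreated replicate 2 or 48 h replicate 2, 18 without untreated replicate 3 and 11, with 3 falls, without 48 h replicate 3. RPL9B rose by 1.05 ± 0.15, from 428, 398 and 416 CPM to 642, 954 and 976 CPM, and it shares reads with its near-identical copy RPL9A. Genes of the mitochondrial ribosome differed less between the libraries: of 67 tested 22 fell and 6 rose, with a median of -0.21 and medians of -0.42, -0.08 and -0.09. Counts higher and lower were 2 and 7 in the fit of the 6 libraries and 1 and 49 by TPM. After the length correction 44 fell and 4 rose, and the falls were 14 to 26 when each library was left out in turn. MRP7, MRPL13, MRPL22 and RSM28, subunits of this ribosome, fell by 0.75, 0.63, 0.69 and 0.74 on the log2 scale, with groups that did not overlap. RSM28, the most certain of them by its p, had 90.7, 87.8 and 82.5 CPM before CaCl2 and 55.8, 52.8 and 47.4 CPM at 48 h (adjusted p = 1.45e-05).

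Genes of heat shock and reserve carbohydrates fell, and untreated replicate 1 lay apart for several of them. Of 24 tested chaperone genes 11 fell and 1 rose, with a median of -0.54 and medians of -0.19, -0.73 and -0.76. The counts were 0 and 4 in the fit of the 6 libraries and 1 and 16 by TPM. Leaving out 48 h replicate 2 gave 7 falls, leaving out 48 h replicate 1 gave 15, and there were 2 with replicate 1 as the only treated library. BTN2, a sorter of misfolded proteins, had 27.7, 43.0 and 48.1 CPM before CaCl2 and 11.3, 6.80 and 5.20 CPM at 48 h (-2.35 ± 0.29 (adjusted p = 6.38e-06)). CUR1, its paralog, had 33.6, 42.3 and 49.9 CPM before CaCl2 and 10.5, 12.0 and 11.0 CPM at 48 h (-1.91 ± 0.23). SIS1, an Hsp40 chaperone, had 178, 228 and 243 CPM before CaCl2 and 149, 65.2 and 64.5 CPM at 48 h (-1.22 ± 0.27), was highest in replicate 1 at 48 h and was not called with that library as the only treated one or in a fit of the 6 libraries alone. HSP42, a small heat shock protein, had 19.3, 138 and 135 CPM before CaCl2 and 13.7, 13.2 and 16.8 CPM at 48 h. Its groups did not overlap and its log2 change was -2.75 ± 0.82 (adjusted p = 0.0162), but without untreated replicate 2, untreated replicate 3 or 48 h replicate 2 the adjusted p was 0.0581, 0.0539 and 0.0527, and with 48 h replicate 1 as the only treated library 0.152. HSP12, a membrane-binding heat shock protein, was the single rise of the list: 82.0, 59.0 and 89.8 CPM before CaCl2 and 96.8, 481 and 1104 CPM at 48 h (2.86 ± 0.59 (adjusted p = 0.00136)), with replicate 1 next to the untreated libraries and a log2 change of 1.85 without replicate 3. HSP12 was not called with replicate 1 as the only treated library or in a fit of the 6 libraries alone. Of 17 tested genes of trehalose and glycogen 6 fell and 0 rose, with a median of -0.81 and counts of 0 and 3 in the fit of the 6 libraries and 0 and 10 by TPM. The falls were 13 without untreated replicate 1, 2 without untreated replicate 2 or 48 h replicate 2, 3 without untreated replicate 3 or 48 h replicate 3 and 0 with 48 h replicate 1 as the only treated library.

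Of 27 tested genes of the G1 to S transition 7 rose and 0 fell, against 19.8% and 13.7% of all genes, with a median of 0.33 and counts of 1 and 0 in the fit of the 6 libraries and 2 and 2 by TPM. There were 2 falls without 48 h replicate 1 and 2 after the length correction. The rises were 12 without untreated replicate 1 and 4 without untreated replicate 2 or 3, and 11 with replicate 1 as the only treated library. PCL1, a G1 cyclin of the kinase Pho85, had 22.8, 7.88 and 8.74 CPM before CaCl2 and 76.1, 47.3 and 48.9 CPM at 48 h (2.13 ± 0.33 (adjusted p = 9.34e-05)). RNR1, the large subunit of ribonucleotide reductase, had 147, 58.2 and 53.5 CPM before CaCl2 and 510.2, 179.7 and 222 CPM at 48 h (1.81 ± 0.43, not called in a fit of the 6 libraries alone). Both were highest in replicate 1, in the untreated group and at 48 h. Of 16 tested genes of the G2 to M transition 9 rose and 0 fell, with a median of 0.42 and medians of 0.42, 0.38 and 0.33, and the counts were 4 higher and 0 lower in a fit of the 6 libraries alone and 2 higher and 1 lower on the TPM scale. The rises were 6 without untreated replicate 2 or 3 or 48 h replicate 2. CLB1, a B-type cyclin, had 67.4, 59.0 and 53.9 CPM before CaCl2 and 85.1, 107 and 102 CPM at 48 h (0.70 ± 0.13 (adjusted p = 0.000292), not called on the TPM scale), and KIN3, a mitotic kinase, rose by 0.90 ± 0.13.

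Genes of the cell wall were called in both directions. Shares in the fit to all 24 libraries are to be set against 19.8% rises and 13.7% falls among all genes. Of 22 tested genes of wall mannoproteins 5 rose and 1 fell, with counts of 2 and 1 in the fit of the 6 libraries and 2 and 4 by TPM. The falls were 3 without untreated replicate 1 or 48 h replicate 1. SRL1 and CIS3, mannoproteins that stabilise the wall, had 681, 707 and 1019 and 686, 872 and 963 CPM before CaCl2 and 1785, 1619 and 3283 and 1447, 1904 and 2311 CPM at 48 h (1.47 ± 0.32 and 1.17 ± 0.20). PRM5, a target of the wall integrity pathway, fell from 47.5, 84.6 and 77.5 CPM to 6.15, 11.5 and 13.2 CPM (-2.77 ± 0.51). Of 27 tested genes of glucan and chitin synthesis 7 rose and 7 fell, the falls 3 without untreated replicate 2 or 48 h replicate 2, with counts of 2 and 2 in the fit of the 6 libraries and 3 and 10 by TPM. KRE1, which builds beta-1,6-glucan, rose by 1.14 ± 0.19, and UTR2, a chitin transglycosylase, fell by 0.84 on the log2 scale, from 1389, 1312 and 1361 CPM to 862, 677 and 737 CPM. Of 19 tested genes of wall integrity signalling 4 rose and 6 fell, with counts of 1 and 3 in the fit of the 6 libraries and 1 and 9 by TPM. The rises were 1 without untreated replicate 3 and 2 without 48 h replicate 2, and the falls were 2 with 48 h replicate 1 as the only treated library. The sensor gene WSC2 had 104, 113 and 122 CPM before CaCl2 and 211, 239 and 369 CPM at 48 h (1.27 ± 0.22). The kinase gene SLT2 had 148, 195 and 166 CPM before CaCl2 and 114, 90.9 and 77.4 CPM at 48 h (-0.85 ± 0.15) and the GTPase gene RHO1 fell by 0.51 on the log2 scale. Of 31 tested genes of cortical actin patches 10 rose and 2 fell, with counts of 4 and 1 in the fit of the 6 libraries and 2 and 4 by TPM. There were 5 falls without 48 h replicate 1 and 1 without 48 h replicate 3. ABP1, an actin-binding activator of Arp2/3, rose by 1.18 ± 0.23 with 218, 155 and 115 CPM at 48 h. VRP1, verprolin, rose by 1.53 ± 0.32, and RVS161, an amphiphysin of endocytosis, fell by 0.69 on the log2 scale.

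In carbon metabolism, 8 of 23 tested glycolytic and fermentative genes fell and 2 rose, with a median of -0.26. The rises were 1 without untreated replicate 1 or 48 h replicate 3, and the counts were 0 and 3 in the fit of the 6 libraries and 0 and 12 by TPM. HXK2, the main hexokinase, had 2824, 3304 and 3139 CPM before CaCl2 and 2274, 1565 and 1781 CPM at 48 h (-0.72 ± 0.13, not called in the fit of the 6 libraries), and PGI1, the next enzyme, fell by 0.76 on the log2 scale. PDC1, pyruvate decarboxylase, rose from 5343, 5652 and 6002 CPM to 9538, 8295 and 9494 CPM (0.69 ± 0.15, not called on the TPM scale or in the fit of the 6 libraries). Of 17 tested hexose transporter and sensor genes 3 rose and 3 fell, with counts of 2 and 2 in the fit of the 6 libraries and 1 and 4 by TPM. The falls were 0 without untreated replicate 2 and 1 without untreated replicate 3 or 48 h replicate 2. HXT1, the low-affinity transporter, had 922, 675 and 721 CPM before CaCl2 and 1654, 1932 and 3394 CPM at 48 h (1.59 ± 0.24 (adjusted p = 5.86e-05)), and the groups did not overlap. HXT4, a high-affinity transporter, had 22.2, 299 and 302 CPM before CaCl2 and 3.21, 8.40 and 17.5 CPM at 48 h (-4.43 ± 1.42 (adjusted p = 0.0229)), with untreated replicate 1 far below the other untreated libraries, and its adjusted p was 0.0596 without untreated replicate 2, 0.0579 without untreated replicate 3, 0.0624 when 48 h replicate 1 was left out and 0.0702 when 48 h replicate 2 was. Of 25 tested genes of nitrogen uptake and use 10 rose and 3 fell, with a median of 0.25. The rises were 6 without untreated replicate 2 or 48 h replicate 3, the falls 1 without untreated replicate 3, and the counts were 4 and 1 in the fit of the 6 libraries and 4 and 5 by TPM. GDH3, an isoform of glutamate dehydrogenase, had 6.56, 7.67 and 8.92 CPM before CaCl2 and 56.2, 50.5 and 39.7 CPM at 48 h (2.66 ± 0.25 (adjusted p = 1.67e-07)). MEP2, the ammonium transporter and sensor, had 12.9, 9.52 and 10.3 CPM before CaCl2 and 22.4, 19.8 and 24.6 CPM at 48 h (1.03 ± 0.19).

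The 10 genes with the widest range among the 48 h libraries and a mean of at least 100 CPM were CWP2, HSP12, FIT1, SDH3, HOR7, QCR7, VTC1, FMP42, MFA1 and ELO1. Replicate 1 was the lowest library in 9 of them and the highest for FIT1. CWP2, a mannoprotein of the wall, had 3020.0, 4011 and 5037 CPM before CaCl2 and 1092, 5857 and 11632 CPM at 48 h, so that the 48 h libraries enclosed the untreated ones (0.62 ± 0.66 (adjusted p = 0.490)). HOR7, a gene that responds to concentrated media, had 156, 141 and 163 CPM before CaCl2 and 35.4, 148 and 206 CPM at 48 h (-0.24 ± 0.43 (adjusted p = 0.701)). ELO1, a fatty acid elongase, had 186, 185 and 207 CPM before CaCl2 and 121, 367 and 501 CPM at 48 h (0.77 ± 0.31 (adjusted p = 0.0583)). With replicate 1 as the only treated library the log2 change of ELO1 was -0.67, and without that library ELO1 rose (1.17 ± 0.19). FMP42, found with mitochondria, had 194, 174 and 187 CPM before CaCl2 and 76.5, 203 and 350.3 CPM at 48 h (0.18 ± 0.33). Its log2 change was -1.27 with replicate 1 as the only treated library. VTC1, of the polyphosphate complex, rose from 169.8, 131 and 168 CPM to 211, 531 and 973 CPM (1.87 ± 0.46 (adjusted p = 0.00435)), or by 1.20 without replicate 3, and was not called with replicate 1 as the only treated library.

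Between 12 and 48 h in CaCl2, 596 genes rose (9.79%) and 291 fell (4.78%), in a comparison that shares the 48 h libraries with the one above. After the length correction 86 rose and 118 fell, and leaving out 1 library gave 12 (without 48 h replicate 2) to 2325 calls (without 48 h replicate 1), with 76 without 12 h replicate 3 and 17 without 48 h replicate 3. In a fit of these 6 libraries alone 0 genes were called, with 871 at an unadjusted p below 0.05, and DESeq2 called 1105. Siderophore uptake had 0 calls in either direction: ARN1 had 1163, 1069 and 1102 CPM at 12 h against 1392, 1473 and 1456 CPM at 48 h (0.37 ± 0.18 (adjusted p = 0.154)). Genes of the mitochondrial ribosome had 44 rises and 0 falls among 67, with a median of 0.44, and 3 rises after the length correction. Late ergosterol genes had 0 rises and 8 falls among 15, with a median of -0.38, and 3 falls after the length correction. Amino acid synthesis genes had 1 rise and 16 falls among 43, and 9 falls after it. CWP1, a wall mannoprotein, had 76.2, 80.7 and 103 CPM at 12 h and 159, 219.7 and 517 CPM at 48 h, between the 12 h level and the untreated one (517, 448 and 485 CPM) in replicates 1 and 2, and rose by 1.78 ± 0.31 (adjusted p = 0.00489). NQM1 had 25.9, 23.5 and 25.9 CPM at 12 h and rose further, by 1.58 ± 0.27 (adjusted p = 0.00438). Both calls held when each library was left out and after the length correction, and both were lost in the fit of the 6 libraries (adjusted p = 0.332 for each) and with 48 h replicate 1 as the only 48 h library (0.38 and 0.428). CIT2, the peroxisomal citrate synthase, had 347, 691 and 1085 CPM at 12 h and fell by 1.96 on the log2 scale to 226, 189 and 132 CPM, a call that was lost after the length correction (adjusted p = 0.0599) and without 12 h replicate 2 or 3 or 48 h replicate 2 or 3.

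From 48 to 72 h 457 genes rose (7.51%) and 910 fell (14.9%), again with the same 48 h libraries. After the length correction 80 rose and 83 fell, and leaving out 1 library gave 1 (without 48 h replicate 2, and also without 72 h replicate 3) to 2742 calls (without 48 h replicate 1), with 50 without 48 h replicate 3 and 736 without 72 h replicate 1. In a fit of these 6 libraries alone 0 genes were called, with 1266 at an unadjusted p below 0.05, and DESeq2 called 1565. Siderophore uptake again had 0 calls, with 1090.0, 1476 and 1435 CPM for ARN1 at 72 h. Of 138 genes of cytosolic ribosomal proteins 0 rose and 105 fell, and after the length correction 2 fell. Of 67 genes of the mitochondrial ribosome 39 fell, and after the correction 4. SED1, an abundant wall protein, had 6020.0, 4928 and 6443 CPM at 48 h and 10758, 11444 and 14855 CPM at 72 h and rose by 1.09 ± 0.23 (adjusted p = 0.00869), a call kept after the length correction but lost without 48 h replicate 2 or 72 h replicate 3 and in the fit of the 6 libraries. CMC1, a copper-binding assembly factor of cytochrome oxidase, had 29.4, 64 and 61.5 CPM at 48 h and 24.1, 25.6 and 20.3 CPM at 72 h and fell by 1.14 on the log2 scale, with the same losses.

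The change from 0 to 48 h was compared with that in crz1_cnb1 cells, which lack calcineurin activity as well as Crz1. The difference of the changes was called for 26 genes, of which 7 were higher (0.115%) and 19 lower (0.312%) in crz1 than in crz1_cnb1, with 924 genes at an unadjusted p below 0.05, and DESeq2 called 97. These calls depended on single libraries: there were 915 without crz1 48 h replicate 1 (534 higher and 381 lower), 0 without untreated crz1 replicate 3, without untreated crz1_cnb1 replicate 1 or without crz1_cnb1 48 h replicate 3, and 1 to 22 without the others. In a fit of the 12 libraries alone 4 were called, and after the length correction 85, of which 25 were among the 26. All 8 genes described next kept their call without crz1 48 h replicate 1 and after the length correction, and none was called without untreated crz1 replicate 2 or 3, untreated crz1_cnb1 replicate 1 or crz1_cnb1 48 h replicate 3, or with crz1 48 h replicate 1 as the only crz1 library at 48 h. ARG4 kept its call without any other single library and the other 7 genes lost it without 1 or more of them. In the fit of the 12 libraries ARG4 and PHO3 were called, and PET10 and MET3 were not called on the TPM scale.

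GPP2 of glycerol synthesis had 266, 232 and 260.2 CPM before CaCl2 and 774, 1229 and 1439 CPM at 48 h in crz1, against 256, 213 and 251 CPM and 458, 598 and 504 CPM in crz1_cnb1. It rose in both strains, and the rise was larger in crz1 by 1.07 ± 0.23 (adjusted p = 0.0371) on the log2 scale. PET10, a protein of lipid droplets, had 50.5, 50.4 and 50.5 CPM before CaCl2 and 76.4, 82.4 and 129 CPM at 48 h in crz1, against 48.4, 49.4 and 46.4 CPM and 46.7, 44.0 and 45.5 CPM in crz1_cnb1. It rose in crz1 and stayed within 44.0 to 49.4 CPM in crz1_cnb1, a difference of changes of 1.01 ± 0.20 (adjusted p = 0.0229). MET3, the ATP sulfurylase of sulfate assimilation, had 115, 69.3 and 85.2 CPM before CaCl2 and 97.8, 146 and 188 CPM at 48 h in crz1, against 98.9, 58.8 and 58.8 CPM and 29.7, 37.5 and 33.0 CPM in crz1_cnb1. The crz1 groups overlapped while the crz1_cnb1 values fell below all untreated ones, a difference of 1.79 ± 0.38 (adjusted p = 0.0371). PHO3, an acid phosphatase that shares sequence with PHO5, had 312, 294 and 308 CPM before CaCl2 and 154, 214 and 222 CPM at 48 h in crz1, against 328, 309 and 349 CPM and 79.9, 90.7 and 86.4 CPM in crz1_cnb1. It was lower at 48 h in both strains and more so without Cnb1, a difference of 1.31 ± 0.25 (adjusted p = 0.0229).

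In the other direction, ARG4, argininosuccinate lyase of arginine synthesis, had 118, 125 and 124 CPM before CaCl2 and 47.6, 48.5 and 37.9 CPM at 48 h in crz1, against 114, 120.3 and 109 CPM and 111, 99.6 and 111 CPM in crz1_cnb1. It fell in crz1 and kept its level more closely in crz1_cnb1, a difference of -1.36 ± 0.22 (adjusted p = 0.0229). MIA40, the receptor that oxidises small proteins as they enter the intermembrane space of mitochondria, had 206, 237 and 217 CPM before CaCl2 and 120.2, 84.1 and 79.9 CPM at 48 h in crz1, against 169, 227 and 198 CPM and 184, 182 and 170.3 CPM in crz1_cnb1. COA4, a twin-cysteine protein of that space, had 7.74, 9.48 and 9.48 CPM before CaCl2 and 5.26, 4.03 and 4.50 CPM at 48 h in crz1, against 6.90, 7.97 and 7.57 CPM and 10.3, 10.1 and 10.1 CPM in crz1_cnb1. Both were lower at 48 h in crz1 with no overlap, and in crz1_cnb1 MIA40 overlapped with its untreated values while COA4 lay above them, differences of -1.07 ± 0.21 (adjusted p = 0.0229) and -1.39 ± 0.27 (adjusted p = 0.0229). KDX1, a protein related to the kinase Slt2, had 14.3, 20.2 and 23.4 CPM before CaCl2 and 11.7, 12.4 and 13.9 CPM at 48 h in crz1, against 17.8, 22.9 and 27.1 CPM and 35.7, 50.8 and 42.5 CPM in crz1_cnb1, a difference of -1.54 ± 0.30 (adjusted p = 0.0229). The crz1_cnb1 libraries at 48 h lay above every untreated library of either strain, and the crz1 ones below all 3 of their own. By list, genes of import into the intermembrane space had 0 higher and 3 lower among 18, and genes of the mitochondrial ribosome 0 higher and 5 lower among 67. Siderophore uptake had 0 calls, with a median difference of changes of -0.66, or -0.98 with 1 call lower (ARN2) without crz1 48 h replicate 1. The difference was below 0 for each of the 7 tested genes, closest to 0 for FIT1 (-0.13 ± 0.88), and -0.85 ± 0.46 for FIT2. ARN1 had 1406, 1285 and 1385 CPM at 48 h in crz1_cnb1 against 1392, 1473 and 1456 CPM in crz1, and the difference of changes was -0.28 ± 0.25 (adjusted p = 0.608). AGA2 had 24.7, 39.7 and 35.1 CPM there against 19.8, 34.6 and 42.7 CPM (0.03 ± 0.28 (adjusted p = 0.963)). A p above the threshold does not show that the strains changed alike.

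**Figure D5:**
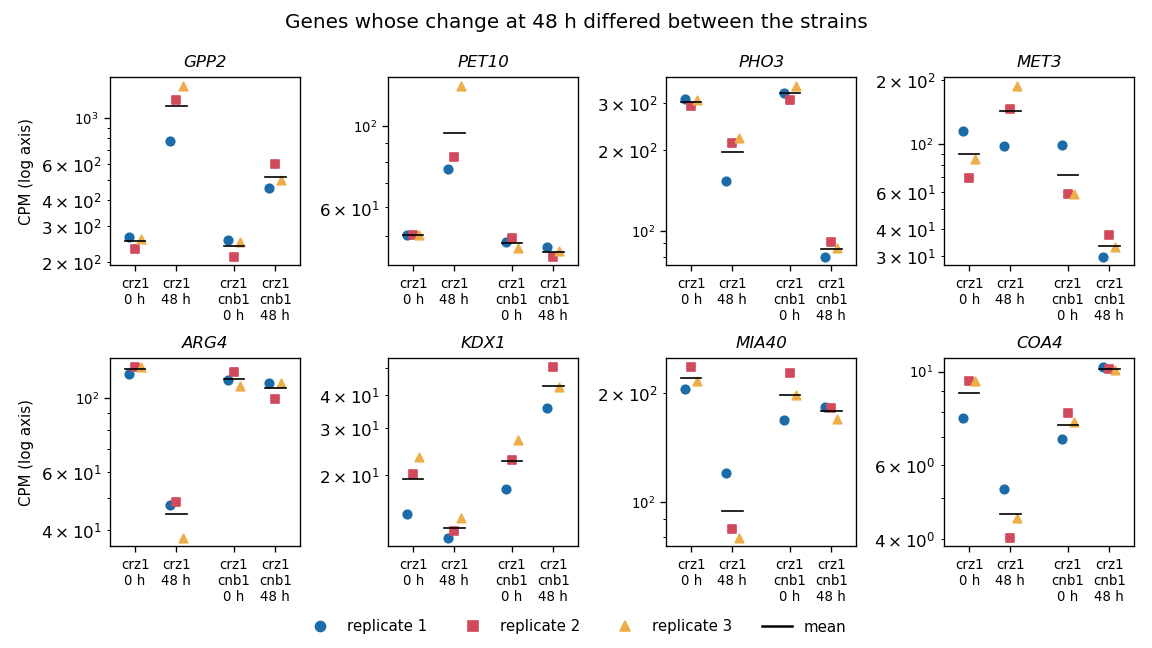
CPM on a log axis for GPP2, PET10, PHO3, MET3, ARG4, KDX1, MIA40 and COA4, untreated and at 48 h, in crz1 and crz1_cnb1 cells, with 1 point for each library and a bar at each group mean. GPP2, PET10, MET3 and PHO3 end higher in crz1 than in crz1_cnb1, and ARG4, KDX1, MIA40 and COA4 end lower.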

How the data were processed

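PolyA RNA of 24 libraries was sequenced. The authors deposited a table of raw counts per gene (7126 genes) and one of TPM (6737 genes), and per the submitters' processing notes featureCounts, DESeq2 and build R64 were used. Which step made each table, the tool versions and how strand was handled are not stated in any source used, so overlapping genes and near-identical copies are uncertain. Depth of 21582317 to 22016465 counts per library sets the counting error. RefSeq held 6048 of the gene IDs.

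All 24 libraries were fitted together with 1 coefficient per group, so that they share one estimate of spread, in edgeR 4.0.16 (R 4.3.3) by a robust quasi-likelihood fit after TMM scaling and filterByExpr, which left 6089 genes. CPM are TMM-scaled, and log2 CPM used a prior count of 2. The labels give triplicates without saying that they came from separate cultures, so p-values measure the spread between these libraries, which may be technical. Alternatives were RLE size factors, no filter, only the libraries compared, the replicate number as a block, DESeq2 1.42.0, voom quality weights and limma trend (limma 3.58.1) on log2(TPM + 1) or log2(TPM + 0.1) with at least 1 TPM in 3 libraries or no filter, and each library left out. A length correction (lowess on coding length, span 0.3, 5705 genes) and a fit with 48 h replicate 1 alone were added after the data were seen. The procedure was tested on simulated counts drawn independently for each library. A length trend in some 48 h libraries was simulated only for the length correction, and no other library-wide shift was. The simulation therefore does not show how the other fits behave when libraries of 1 group differ as those at 48 h did.

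The members and the 47 gene lists were chosen with earlier results of these data known. The rule for names took the 12 largest rises and falls of called genes that have a standard name, a group mean of 10 CPM or more and groups that did not overlap. It also took up to 4 genes of lowest p in each list, the 10 widest 48 h ranges above 100 CPM, up to 4 genes per direction between times and up to 6 per direction between strains. Other list members were named after their values were seen, to show the steps of a pathway.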

Additional observations from a re-analysis of the deposited data

Results flagged for a closer look

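For 15 named genes the change from 0 to 48 h differed between the strains by edgeR's test of the difference itself, given here as the log2 change in crz1 minus that in crz1_cnb1. The difference was 1.95 for PRM7, a pheromone-regulated membrane protein, 1.79 for MET3, 1.66 for MET17, which joins sulfide to O-acetylhomoserine, 1.31 for PHO3, 1.07 for GPP2, 1.01 for PET10 and 0.87 for the cyclin gene CLB1. It was -1.54 for KDX1, -1.39 for COA4, -1.37 for ARO5, -1.36 for ARG4, -1.09 for ZIP1, of the synaptonemal complex, -1.07 for MIA40, and -0.77 and -0.73 for the mitochondrial ribosomal proteins MRPL22 and RSM28. PRM7 had 634, 529 and 649.8 CPM before CaCl2 and 732, 902 and 944 CPM at 48 h in crz1. In crz1_cnb1 it had 739.8, 600.0 and 811 CPM and 191, 337 and 262 CPM, with all 48 h libraries below the untreated ones. MET17 had 1024, 772 and 891 CPM before CaCl2 and 1138, 1281 and 2233 CPM at 48 h in crz1, all 48 h libraries above the untreated ones. In crz1_cnb1 it had 1047, 717 and 687 CPM and 441, 452 and 451 CPM, in the reverse order. ZIP1 had 18.7, 16.6 and 18.9 CPM before CaCl2 and 9.18, 7.72 and 7.07 CPM at 48 h in crz1, against 14.2, 18.2 and 20.6 CPM and 17.6, 17.8 and 14.8 CPM in crz1_cnb1. Every tested gene was refitted with each of these libraries left out in turn. Leaving out untreated crz1 replicate 3, untreated crz1_cnb1 replicate 1 or crz1_cnb1 48 h replicate 3 left 0 genes called. None of these 15 was therefore called there. Without untreated crz1 replicate 2, 1 gene was called, lower in crz1 by at least 2-fold. It was none of the 12 other than CLB1, MRPL22 and RSM28, and not CLB1, whose difference was upward. The part of those libraries in the differences was not tested.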

How the results depend on the processing

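RLE size factors and the absence of a filter on low counts left each count of calls within 1.5 times its value. For 48 h against 0 h the 2041 calls became 629 with only the 6 libraries and 3359 with voom quality weights, where 48 h replicate 1 had a weight of 0.0806, and 1414 to 2730 with each library left out. For 48 h against 12 h the 887 calls became 395 on log2(TPM + 1), 396 on log2(TPM + 0.1), 372 without the TPM filter, 204 after the length correction, 3112 with voom weights and 12 to 2325 with each library left out. They became 0 with only the 6 libraries and 0 with 48 h replicate 1 alone, where edgeR gave 871 and 755 genes at an unadjusted p below 0.05. On log2(TPM + 1) the split was 129 higher and 266 lower, against 596 and 291 on counts. For 72 h against 48 h the 1367 calls became 163 after the length correction, 3260 with voom weights, 3 with 48 h replicate 1 alone, 0 with only the 6 libraries (1266 at an unadjusted p below 0.05 by edgeR) and 1 to 2742 with each library left out. On log2(TPM + 1) there were 799 higher and 252 lower, against 457 and 910 on counts. For the strain difference the 26 calls became 97 with DESeq2, 74 on log2(TPM + 1), 74 on log2(TPM + 0.1), 62 without the TPM filter, 4 with only the 12 libraries, 85 after the length correction, 2012 with voom weights, 3 with 48 h replicate 1 alone and 0 to 915 with each library left out. The 986 genes spanning at least 2-fold among the 48 h libraries became 1645 on the TPM scale and 129 to 808 with each library left out. With 48 h replicate 1 as the only treated library, the log2 change from 0 to 48 h turned to -0.67 for ELO1, -1.27 for FMP42, -0.95 for GDT1, -0.62 for MET14, -0.24 for MET16, -0.13 for RPL41B, -0.32 for SDH6, -0.59 for SPL2, -0.24 for TMA7, -0.32 for VMA11, -0.054 for VMA21 and -0.012 for VMA9. For GRX3 it turned to -0.081 on log2(TPM + 1), with or without the filter, and -0.082 on log2(TPM + 0.1). Fewer libraries entered the fits that left some out, and otherwise the cause was not tested. Pairing by replicate number was uneven. For each crz1 library at 48 h, deviations from the group mean were correlated with those of the same replicate number in another group. For replicates 1, 2 and 3 the correlations were 0.20, -0.021 and 0.37 with untreated crz1. They were 0.44, 0.053 and 0.53 with crz1 at 12 h, and -0.066, 0.17 and 0.19 with crz1 at 72 h. Those with crz1_cnb1 at 48 h were 0.66, 0.51 and 0.0954. Whether libraries of the same number shared a culture or batch was not tested. With the replicate block, calls were 2401, 1277, 1812 and 65 in the order above, and with the block within strain 2311, 1151, 1736 and 63. Depth limits only genes of few counts, such as FIG1.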

Other observations

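Of 14 tested folding genes 6 rose and 0 fell, with a median log2 change of 0.05. The list had 1 higher and 0 lower in a fit of the 6 libraries alone, and 1 higher and 2 lower by TPM. HAC1, the transcription factor of the unfolded protein response, had 118, 109 and 106 CPM before CaCl2 and 179.5, 429 and 348 CPM at 48 h, a log2 change of 1.52 ± 0.21 (adjusted p = 1.67e-05) by edgeR. Replicate 1 was the lowest of the 48 h libraries and lay above the untreated ones. PDI1, protein disulfide isomerase, rose by 0.67 ± 0.13, and was not called by TPM or in a fit of the 6 libraries alone. Of 43 tested genes of amino acid synthesis 7 rose and 9 fell, against 19.8% and 13.7% of all genes, with a median log2 change of -0.003. There were 14 falls without 48 h replicate 1, and the counts were 4 and 6 in the fit of the 6 libraries and 3 and 16 by TPM. THR1, homoserine kinase, had 229, 189.7 and 225 CPM before CaCl2 and 603, 471 and 485 CPM at 48 h (1.28 ± 0.15). ILV6, the regulatory subunit of acetolactate synthase, rose by 1.01 ± 0.12. SER3, of serine synthesis, fell from 56.6, 86.7 and 70.4 CPM to 23.4, 30.5 and 23.6 CPM (-1.46 ± 0.23). ARO3, of the first step of aromatic amino acid synthesis, fell from 165, 161 and 164 CPM to 68.2, 84.3 and 92.3 CPM. The groups of these 4 genes did not overlap. In arginine synthesis 2 of 11 genes rose and 3 fell, with 1 fall without 48 h replicate 2 or 48 h replicate 3 and 2 without untreated replicate 3 (2 and 1 in the fit of the 6 libraries and 1 and 4 by TPM). CPA1, of carbamoyl phosphate synthesis, rose by 0.75 ± 0.13, and ARG4 fell by 1.46 on the log2 scale.

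Of 18 tested genes of import into the intermembrane space of mitochondria 3 rose and 3 fell. The rises were 7 without 48 h replicate 1 and 2 without untreated replicate 2 or 3 or 48 h replicate 2 or 3, and the counts were 2 and 3 in the fit of the 6 libraries and 2 and 6 by TPM. COX19, a twin-cysteine protein, had 18.8, 14.5 and 16.9 CPM before CaCl2 and 27.5, 35.7 and 40.5 CPM at 48 h (1.04 ± 0.17), and CMC4, another, rose by 1.24 ± 0.19. MIA40 fell by 1.22 on the log2 scale. Of 10 tested genes of heme synthesis 1 rose and 3 fell (0 and 1 in the fit of the 6 libraries and 0 and 6 by TPM). HEM1, of the first step, rose by 0.65 ± 0.13 and was not called by TPM or in a fit of the 6 libraries alone. HEM13, an oxygen-dependent later step, fell from 169, 253 and 261 CPM to 76.7, 95.5 and 100.5 CPM (-1.32 ± 0.31). Of 11 tested genes of monovalent ion transport 4 rose and 1 fell, with no fall without untreated replicate 2 or 48 h replicate 2 or 3 and counts of 1 and 0 in the fit of the 6 libraries and 1 and 2 by TPM. NHX1, an endosomal exchanger of sodium and protons, rose from 136, 137 and 134 CPM to 209, 241 and 328 CPM (0.93 ± 0.13). Proteasome genes had 3 rises and 8 falls among 33, with 3 falls without untreated replicate 1, 5 without untreated replicate 2 and 4 without 48 h replicate 3. They had 0 higher and 0 lower in a fit of the 6 libraries alone, and 0 higher and 17 lower by TPM. Subunits of the vacuolar ATPase had 4 rises and 0 falls among 18, with 7 rises without 48 h replicate 1 and 2 without untreated replicate 2 or 48 h replicate 2 or 3. Their counts were 0 and 0 in the fit of the 6 libraries and 1 and 5 by TPM.

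Among the 12 largest falls, FAT3, needed for fatty acid uptake, had 24.7, 29.4 and 29.5 CPM before CaCl2 and 6.55, 3.79 and 4.77 CPM at 48 h (-2.46 ± 0.22). IMD2, an IMP dehydrogenase with near-identical copies, had 103, 125 and 118 CPM before CaCl2 and 23.4, 24.8 and 16.7 CPM at 48 h (-2.41 ± 0.31), and its counts may be shared with those copies. The TCA cycle had 0 rises and 4 falls among 16, with 9 falls without 48 h replicate 1 and 2 without untreated replicate 2 or 3 or 48 h replicate 2 (0 and 1 in the fit of the 6 libraries and 0 and 9 by TPM). Ribosome biogenesis had 2 rises and 5 falls among 35, with 10 rises without untreated replicate 1 and 2 falls without 48 h replicate 3 (0 and 1 in the fit of the 6 libraries and 0 and 8 by TPM). Inositol and phospholipid genes had 4 rises and 2 falls among 16, with 1 rise without 48 h replicate 3 and 1 fall without untreated replicate 2 or 3 or 48 h replicate 3. Their counts were 1 and 0 in the fit of the 6 libraries and 1 and 7 by TPM, and 1 and 3 with 48 h replicate 1 as the only treated library. Autophagy and vacuolar protease genes had 4 rises and 4 falls among 13, with 2 falls without untreated replicate 3 and 2 rises without 48 h replicate 3 (0 and 0 in the fit of the 6 libraries and 1 and 5 by TPM). Zinc genes had 3 rises and 1 fall among 11, drug pumps 1 rise and 1 fall among 12, daughter cell separation 2 rises and 1 fall among 11 and alpha-specific genes 0 rises and 3 falls among 4. In that order the counts were 0 and 0 in the fit of the 6 libraries and 0 and 2 by TPM, 0 and 0 in the fit of the 6 libraries and 0 and 4 by TPM, 0 and 0 in the fit of the 6 libraries and 0 and 1 by TPM, and 0 and 1 in the fit of the 6 libraries and 0 and 3 by TPM. Leaving out a single library moved each of these counts by at most 2.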
